A study of Mus musculus with 24 samples.

Results

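Etoposide was compared with Nutlin in Myc-CaP, a line of prostate tumour cells from the mouse, using 6 of the 24 RNA sequencing libraries of the study. The members were the 3 libraries titled Etoposide and the 3 titled Nutlin-3, and every gene that passed a filter on low counts was compared, 15527 of 55487 in the table. The study treated these MYC-overexpressing tumour cells for 6 days with agents that induce senescence, a lasting exit from division, and sequenced bulk RNA in triplicate. Etoposide and Nutlin were both given at 500 nM, controls received the solvent DMSO, and the medium with drug was renewed every 3 days. All the libraries carry the label batch 1. The labels do not say that the replicates were separate cultures, so the p-values rest on library-to-library spread alone, which may be technical. The model is 1 cell line under continuous drug, and in bulk RNA fewer cells of a type and less RNA per cell cannot be told apart.

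Etoposide traps type II topoisomerases on DNA and leaves double-strand breaks, which the checkpoint kinases sense. Nutlin occupies the pocket of MDM2 that binds p53, so p53 can accumulate without any break. In either case p53 can induce Cdkn1a, which encodes the CDK inhibitor p21, and the retinoblastoma pathway can then hold E2F-driven genes down. Cells with lasting breaks can also secrete cytokines, proteases and matrix proteins, and DNA that reaches the cytosol can start an interferon response.

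Total counts were between 21260781 and 25652330 in the 6 libraries and between 24648676 and 26438205 in DMSO. Genes with at least 1 count numbered from 22001 to 23222 with etoposide, from 18447 to 19140 with Nutlin and from 18782 to 19292 in DMSO. Levels below are CPM (counts scaled to the library total, with TMM factors), in the order of libraries 1, 2 and 3 unless stated otherwise. Log2 fold changes are given ± SE, and a gene was called higher or lower at an adjusted p under 0.05. On the first principal component, with 65.8% of the variance of these 9 libraries, the etoposide libraries lay between -89.1 and -86.3. Nutlin lay between 48.7 and 52.5 and DMSO between 37.1 and 38.5. On the second, with 13.1%, the libraries numbered 2 had the lowest score of each group. Of the markers of prostate epithelial tumour cells, Foxa1, a factor of prostate epithelium, was at 388 ± 7.45 CPM with Nutlin (SD, n = 3), and Krt8 and Hoxb13 were detected too. Epcam and Krt18 fell below the filter, Epcam with 1 count in all 9 libraries together, and Cdh1, which encodes E-cadherin, had 41 counts in all with etoposide and 6 with Nutlin, so several defining epithelial markers were absent or nearly so.

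Most genes tested separated the drugs, with the G2, mitosis and DNA synthesis genes, the interferon-stimulated genes and secreted factors higher with etoposide, and ribosomal protein and early-response genes lower. Of 15527 genes, 8798 (56.7%) were called in edgeR's quasi-likelihood test, 4494 (28.9%) higher with etoposide and 4304 (27.7%) lower. At a change of at least 2-fold, 2387 (15.4%) were higher and 890 (5.73%) lower. The 3 libraries of 1 drug lay wholly beyond those of the other for 8928 genes (57.5%). With total counts as the only scaling, the median of all genes shifted by 0.22 on the log2 scale, and 6397 genes were higher and 2647 lower. Changes below are relative to TMM. For members of a list called between the drugs, the shares over all genes, 28.9% higher and 27.7% lower, are the background.

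**Figure D1:**
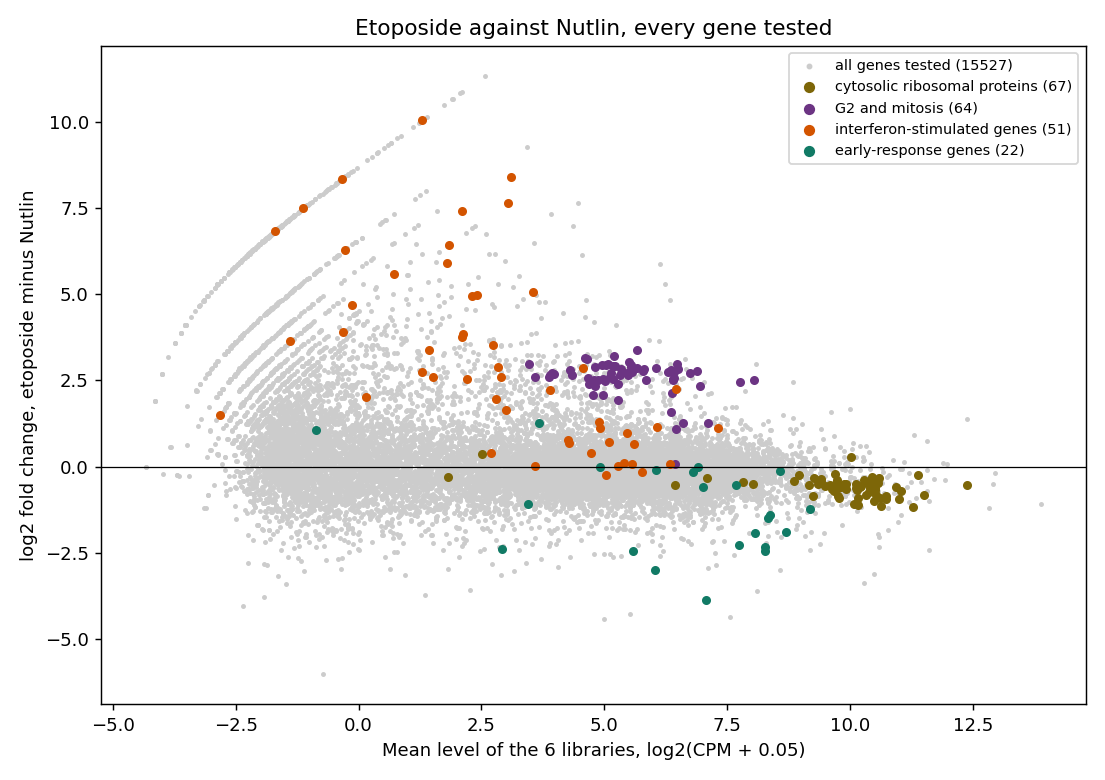
Log2 fold change of etoposide against Nutlin (vertical axis) against the mean level of the 6 libraries on a log2 scale (horizontal axis), 1 point per gene, with 4 gene lists coloured. G2 and mitosis genes lie above 0 as a band, interferon-stimulated genes reach the highest changes at low levels, and ribosomal protein genes lie below 0 at the highest levels. The curved rows at the upper left are genes with few or no counts in Nutlin, whose fitted changes are no bound.

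Against DMSO the drugs were unequal in reach. Etoposide differed from DMSO at 8485 genes (54.6%), 4305 higher (27.7%) and 4180 lower (26.9%). Nutlin differed from DMSO at 3011 genes (19.4%), 1245 higher (8.02%) and 1766 lower (11.4%). A change of 2-fold or more was found at 577 of them (3.72% of the genes tested). These comparisons share the DMSO libraries, so their values are given side by side. For members of a list called against DMSO, the background is 27.7% higher and 26.9% lower with etoposide, and 8.02% and 11.4% with Nutlin.

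Among the largest rises, Serpinb9e, a serpin of a family of near-identical copies, was at 20.2, 21.5 and 22.5 CPM with etoposide and had 2 counts in all with Nutlin. Ccl9, a chemokine that attracts myeloid cells, was at 40.3, 48.8 and 42.4 CPM with etoposide and 0.199, 0 and 0.441 CPM with Nutlin (7.66 ± 0.32, adjusted p = 2.74e-15). Il1rl1, the receptor for interleukin-33, was at 43.97, 45.9 and 47.1 CPM against 0.548, 0.563 and 0.794 CPM (6.15 ± 0.17, adjusted p = 5.01e-18). None of these groups overlapped, and for Ccl9 and Il1rl1 the Nutlin level was not distinguishable from DMSO, with adjusted p = 0.974 and 0.486. Postn, the gene of periostin in the matrix, rose 125-fold, and Lamb3, a laminin chain of the basement membrane, rose 89.6-fold from 0.199, 0.303 and 0.265 CPM with Nutlin. Against DMSO, Lamb3 was 17.4-fold higher with etoposide and 5.15-fold lower with Nutlin (edgeR adjusted p = 9.79e-06 for Nutlin). Apol9a, an interferon-induced apolipoprotein with a close copy, rose 159.6-fold, with Etoposide 1 at 42.9 CPM and Etoposide 3 at 14.9 CPM.

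The largest falls included epithelial and secreted proteins. Prss8, a membrane protease that activates epithelial sodium channels, was at 3.13, 2.99 and 2.31 CPM with etoposide and 58.4, 62.5 and 60.1 CPM with Nutlin (-4.43 ± 0.14, adjusted p = 2.16e-17). Cxcl17, a mucosal chemokine, was at 17.2, 19.98 and 15.6 CPM against 386, 312 and 375 CPM (-4.34 ± 0.15, adjusted p = 1.55e-16). Etoposide was the low group for both, and Nutlin raised Cxcl17 over DMSO by 0.82 on the log2 scale (adjusted p = 5.17e-05). On the log2 scale Calca, which encodes calcitonin and CGRP, fell by 4.26, Cps1, the first enzyme of the urea cycle, fell by 3.60, and Igfbp5, an IGF-binding protein, fell by 3.12 against Nutlin. Cdcp3 fell from 2783, 1639 and 2345 CPM with Nutlin to 236, 215 and 205 CPM with etoposide, and DMSO lay between them at 889, 946 and 1003 CPM.

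Genes of DNA replication and mitosis stood on opposite sides of DMSO, higher with etoposide and lower with Nutlin. Of 64 G2 and mitosis genes, all tested, 63 were higher with etoposide than with Nutlin and 0 lower, with a median of 2.68 on the log2 scale against 0.0024 over all genes. The exception was Kif4 (0.075 ± 0.061, adjusted p = 0.304). Against DMSO, 62 of the 64 were higher with etoposide, with a median of 1.28, and all 64 were lower with Nutlin, with a median of -1.39. Of 54 DNA synthesis genes, 52 were higher and 1, Pold3, was lower (-0.50 ± 0.062, adjusted p = 2.43e-07), with a median of 2.03. Of these 54, 52 were higher than DMSO with etoposide and 51 lower with Nutlin.

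Mki67, the antigen of dividing cells, was at 167, 197 and 191 CPM with etoposide, 25.6, 39.2 and 18.9 CPM with Nutlin and 64.5, 78.5 and 66.4 CPM in DMSO. The 3 groups did not overlap, and etoposide stood 6.62-fold over Nutlin (2.73 ± 0.19, adjusted p = 2.29e-11). Aurka, the kinase that matures the spindle poles, was at 89.2, 97.5 and 92.5 CPM against 6.13, 13.9 and 6.797 CPM (3.37 ± 0.17, adjusted p = 6.30e-14). Nutlin 2 held the highest level of Aurka within its group and still lay below every etoposide library. Dlgap5, a spindle protein, rose by 3.21 and Ttk, the spindle checkpoint kinase, by 3.15 on the log2 scale. Cdc45, part of the replicative helicase, was at 53.2, 54.1 and 52.4 CPM against 4.68, 7.15 and 4.99 CPM and 11.04, 13.4 and 11.9 CPM in DMSO (3.24 ± 0.13, adjusted p = 1.14e-15). Mcm10, which loads the polymerase, rose 9.65-fold. Summed over the 64 G2 and mitosis genes, the Nutlin libraries held 936, 1605 and 994 CPM, with library 2 the highest, and the etoposide libraries 5717, 6159 and 6299 CPM. Without the libraries numbered 2, 63 of the 64 were higher.

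To show the start sites of this group, promoters of the replication genes were read from RefSeq sequences of GRCm38.p6, the assembly that mm10 names, 250 bases before to 50 after each start. The words TTTGGCGC and TTTCCCGC, forms of the E2F site, were searched on both strands. They occurred in 15 of 43 genes of the list with a promoter in the table (34.9%) and in 1.8% of all 27025 genes. E2F matches shared a base with the interferon word searched below in 5 of 32851 promoters and with the NF-kB word in 2. A match is a description of letters and not of binding. The promoters of Dtl, which marks replication proteins for destruction, at chr1:191575495-191575794 on the minus strand, and of Cdc6, which loads the helicase, at chr11:98907901-98908200 on the plus strand are shown because both genes rose and each holds 1 match, in capitals, which reads in reverse complement in Cdc6.
Dtl: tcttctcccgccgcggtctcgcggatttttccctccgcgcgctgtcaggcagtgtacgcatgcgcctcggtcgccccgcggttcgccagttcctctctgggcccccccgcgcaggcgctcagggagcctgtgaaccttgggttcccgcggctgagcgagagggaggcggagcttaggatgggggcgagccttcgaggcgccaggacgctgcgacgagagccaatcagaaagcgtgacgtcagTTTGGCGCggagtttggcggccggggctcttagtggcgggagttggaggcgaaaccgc
Cdc6: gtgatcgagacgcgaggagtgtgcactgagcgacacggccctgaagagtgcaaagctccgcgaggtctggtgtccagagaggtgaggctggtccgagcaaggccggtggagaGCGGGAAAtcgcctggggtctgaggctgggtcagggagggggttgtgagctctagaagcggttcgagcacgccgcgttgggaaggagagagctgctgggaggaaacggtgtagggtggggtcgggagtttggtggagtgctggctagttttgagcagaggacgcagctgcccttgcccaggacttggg
Dtl was at 57.2, 62.6 and 66.96 CPM with etoposide and 6.73, 10.6 and 6.18 CPM with Nutlin (2.98 ± 0.13, adjusted p = 5.44e-15). Cdc6 was at 31.5, 32.04 and 36.4 CPM against 3.39, 5.98 and 3.27 CPM (2.98 ± 0.16, adjusted p = 1.17e-13). Neither gene's groups overlapped.

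**Figure D2:**
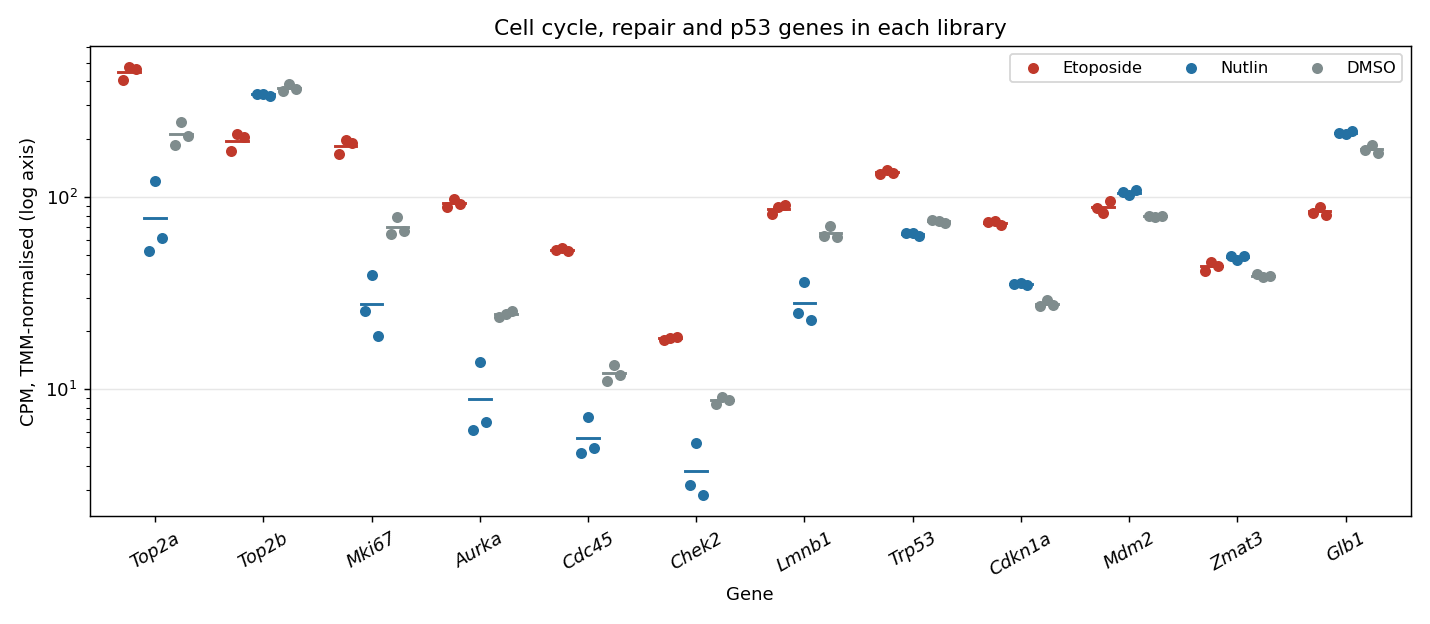
CPM on a log axis for 12 genes in each library of etoposide (red), Nutlin (blue) and DMSO (grey), with points for libraries 1 to 3 from left to right and bars at the means. From Top2a to Lmnb1, apart from Top2b, the order was etoposide, DMSO, Nutlin, and for Mdm2 and Zmat3 the Nutlin libraries are the highest.

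The targets of the drugs were among the separated genes. Top2a, at chr11:98992943-99024189, encodes the topoisomerase II of dividing cells and was at 406, 472 and 461 CPM with etoposide, 52.2, 121 and 60.9 CPM with Nutlin and 186, 244 and 207 CPM in DMSO (2.52 ± 0.19, adjusted p = 1.05e-10). Top2b, at chr14:16365179-16435462, encodes the form that nondividing cells also hold and was at 174, 211 and 205 CPM with etoposide and 343, 344 and 336 CPM with Nutlin (-0.80 ± 0.072, adjusted p = 1.69e-09). Top2a was thus highest and Top2b lowest with etoposide, with no overlap between the drugs for either. Per length, in the deposited TPM, Top2a stood at 147, 156 and 177 TPM and Top2b at 38.7, 42.9 and 48.6 TPM with etoposide, while with Nutlin the levels were 16.3, 35.9 and 18.8 TPM and 65.99, 63.1 and 63.9 TPM. Tdp2, which frees topoisomerase II from DNA ends, rose by 0.48 and Rbbp8, which starts end resection, by 1.29 on the log2 scale.

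Most homologous recombination and Fanconi genes were higher with etoposide. Of 31, 27 were higher with etoposide than with Nutlin and 1, Fance, lower (-0.97 ± 0.083, adjusted p = 5.50e-10), with a median of 2.18. Bard1, the partner of BRCA1, was at 34.7, 33.2 and 34.01 CPM with etoposide, 2.54, 3.25 and 2.69 CPM with Nutlin and 6.37, 6.67 and 6.2999 CPM in DMSO (3.58 ± 0.17, adjusted p = 1.68e-14). Etoposide was the highest and Nutlin the lowest group, with no overlap. Against DMSO, 25 of the 31 were higher with etoposide and 23 lower with Nutlin.

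In other repair routes the calls were mixed. Of 13 end-joining genes, 6 (46.2%) were higher and 2 (15.4%) lower, with 10 and 1 under total counts. Over all genes the shares were 28.9% and 27.7%. The rises included Polq, the polymerase of microhomology-mediated joining (2.65 ± 0.18, adjusted p = 1.36e-11), and the falls Lig3, a ligase of nuclear and mitochondrial DNA (-0.84 ± 0.079, adjusted p = 2.96e-09). The core factors Xrcc5 and Xrcc6, which form Ku, had changes of 0.099 and 0.091 (adjusted p = 0.295 and 0.236). Of 19 checkpoint genes, 11 were higher and 2 lower, the latter 0 under total counts. Chek2, a kinase activated by breaks, was at 18.1, 18.5 and 18.8 CPM against 3.19, 5.28 and 2.82 CPM (2.29 ± 0.17, adjusted p = 4.80e-11), and Wee1, which holds CDK1 inactive, at 33.6, 36.5 and 39.7 CPM against 11.5, 12.6 and 11.7 CPM (1.62 ± 0.077, adjusted p = 2.74e-14). The apical kinases did not pass the test, with changes of 0.017 for Atm (adjusted p = 0.929), -0.00091 for Atr (0.996) and -0.25 for Prkdc (0.153).

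The p53 pathway was split, with no single direction for its targets. Trp53, at chr11:69580359-69591873, encodes p53 and was at 132, 139 and 133 CPM with etoposide, 65.3, 65.1 and 62.4 CPM with Nutlin and 75.7, 74.9 and 73.4 CPM in DMSO (1.06 ± 0.065, adjusted p = 1.93e-12). The RNA of p53 was thus highest with etoposide and lowest with Nutlin, where it fell by 0.22 on the log2 scale against DMSO (adjusted p = 0.02197). Mdm2, at chr10:117688875-117710758, the target of Nutlin and itself a p53 target, was at 87.97, 82.6 and 95.03 CPM with etoposide, 106, 102 and 109 CPM with Nutlin and 79.6, 78.6 and 79.9 CPM in DMSO. It was higher with Nutlin than with DMSO (0.41 ± 0.068, adjusted p = 1.06e-04), while etoposide against DMSO gave 0.16 ± 0.068, adjusted p = 0.0545, which passed with the replicate block (edgeR adjusted p = 0.0192), with RLE factors (edgeR adjusted p = 0.0177), with total counts (edgeR adjusted p = 0.00107), with DESeq2 (adjusted p = 0.0124) and without Etoposide 2 (edgeR adjusted p = 0.0262). It also passed with limma at either pseudocount, with the 1 CPM filter and with the 2 groups alone, at adjusted p of 0.0161 to 0.0447. Mdm2 was lower with etoposide than with Nutlin (-0.25 ± 0.068, adjusted p = 0.00288), a call lost with total counts, with a fit of these groups alone and with limma on the TPM. Mdm4, the relative of Mdm2, was lower with etoposide (-0.77 ± 0.20, adjusted p = 0.00227), a call lost with limma.

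Cdkn1a was at 74.2, 75.3 and 71.2 CPM with etoposide, 35.2, 35.6 and 34.7 CPM with Nutlin and 27.2, 29.01 and 27.5 CPM in DMSO. Both drugs raised it, Nutlin by 0.33 (adjusted p = 0.00301) and etoposide by 1.40 (adjusted p = 3.57e-13) on the log2 scale, and the difference between them was 1.06 ± 0.075, adjusted p = 2.18e-11. Of 37 p53 targets tested of 40 listed, 16 (43.2%) were higher with etoposide than with Nutlin and 13 (35.1%) lower, with a median of 0.11. The shares over all genes were 28.9% and 27.7%. Nutlin against DMSO gave 6 higher (16.2%), beside 8.02% of all genes, and 6 lower (16.2%), beside 11.4%. The 6 risers with Nutlin were Cdkn1a, Mdm2, Zmat3, Sesn2, Bbc3 and Xpc. Zmat3, an RNA-binding tumour suppressor, was at 49.1, 46.998 and 49.6 CPM with Nutlin and 39.6, 38.3 and 38.9 CPM in DMSO (0.32 ± 0.066, adjusted p = 0.00107). Bbc3, the death factor PUMA, rose by 0.41 with Nutlin and fell by 0.57 with etoposide against DMSO. Sesn2, a stress-induced inhibitor of mTORC1, rose by 0.83 with Nutlin and by 0.62 with etoposide.

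Other p53 targets were higher with etoposide alone. Phlda3, an inhibitor of AKT, was at 47.5, 52.4 and 41.1 CPM with etoposide and 7.47, 10.01 and 7.28 CPM with Nutlin (2.51 ± 0.14, adjusted p = 5.21e-13). Eda2r, a death-domain receptor, was at 9.46, 8.38 and 9.82 CPM against 1.54, 1.43 and 1.898 CPM (2.50 ± 0.16, adjusted p = 2.86e-12). Both lay clear of Nutlin, while Nutlin against DMSO gave -0.25 for Phlda3 and -0.44 for Eda2r, with adjusted p = 0.281 and 0.0821. Fas, the death receptor, had 1 count in all with Nutlin and 2.14, 1.65 and 2.13 CPM with etoposide. Targets in the opposite direction included Btg2, an antiproliferative gene, at 97.3, 81.5 and 78.2 CPM against 688, 644 and 699 CPM (-2.98 ± 0.13, adjusted p = 4.27e-15), and Ccng1, a cyclin G, at 40.1, 47.05 and 49.99 CPM against 66.9, 84.3 and 78.4 CPM (-0.74 ± 0.082, adjusted p = 4.24e-08). Neither differed between Nutlin and DMSO past the threshold (adjusted p = 0.791 and 0.861). Bax, the pore-forming death effector, had overlapping libraries (0.11 ± 0.089, adjusted p = 0.295). Among the CDK inhibitors, Cdkn1b, which encodes p27, was lower with etoposide (-0.41 ± 0.066, adjusted p = 1.29e-05), Cdkn2d higher (1.09 ± 0.11, adjusted p = 1.25e-08), and Cdkn2a at 0.14 (adjusted p = 0.3399).

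Most interferon-stimulated genes rose with etoposide, and with Nutlin the share higher than DMSO was near that of all genes. Of 55 listed, 51 passed the filter, some of them through their etoposide counts alone. Among these, 43 were higher with etoposide than with Nutlin and 0 lower, with a median of 2.61, the same with the 4 genes at 0 counts in Nutlin placed at their bound. Against DMSO, 47 (92.2%) were higher and 0 lower with etoposide, beside 27.7% and 26.9% of all genes. With Nutlin 4 (7.84%) were higher than DMSO and 2 (3.92%) lower, beside 8.02% and 11.4% of all genes. Oas3, which makes the second messenger that activates RNase L, was at 24.7, 15.01 and 9.21 CPM with etoposide and 0.149, 0 and 0.0883 CPM with Nutlin, from 5 counts in all. Isg15, a ubiquitin-like modifier, was at 56.02, 44.8 and 23.2 CPM against 4.53, 7.23 and 5.03 CPM (2.88 ± 0.23, adjusted p = 2.05e-10). Irf7, the master regulator of interferon genes, was at 18.4, 11.6 and 6.37 CPM against 0.996, 0.823 and 1.32 CPM (3.52 ± 0.32, adjusted p = 1.89e-09). In all of these Etoposide 1 was the highest and Etoposide 3 the lowest of the etoposide libraries, and each of the 3 lay above every Nutlin library. Summed over the 51 genes, the etoposide libraries held 1677, 1400 and 1036 CPM and the Nutlin libraries 701, 674 and 709 CPM. Without Etoposide 1, 42 of the 51 were higher and 1 lower.

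Oas2 was at 32.3, 11.1 and 7.47 CPM with etoposide and Gbp3, a guanylate-binding protein, at 10.1, 8.81 and 6.62 CPM, each with 3 counts in all with Nutlin. Oas1a, which has near-identical copies, was at 7.97, 4.59 and 1.85 CPM with etoposide and 0 counts with Nutlin, at least 105-fold higher against a floor of 3 counts over the group. No interferon gene in the list (Ifnb1, Ifna4, Ifnl2, Ifnl3 and Ifne) passed the filter. Of 10 genes of interferon and cytokine ligands and receptors tested, 4 (40%) were higher and 3 (30%) lower, with a median of -0.11. Over all genes the shares were 28.9% and 27.7%. Of the receptors, Ifngr2 rose (2.34 ± 0.28, adjusted p = 1.70e-07) and Ifngr1 rose by 0.63, while Ifnar1, of the type I interferon receptor, fell by 0.30. Socs3, an inhibitor of JAK kinases, fell by 0.56. Among the sensors, 12 of 16 were higher and 2 lower. Cgas, the enzyme that senses cytosolic DNA, was at 12.01, 11.9 and 13.2 CPM with etoposide, 4.04, 5.59 and 5.34 CPM with Nutlin and 8.11, 8.58 and 7.46 CPM in DMSO (1.31 ± 0.12, adjusted p = 1.83e-09). Ddx58, which encodes the RNA sensor RIG-I, was at 48.5, 41.2 and 35.9 CPM against 18.6, 15.5 and 16.9 CPM (1.303 ± 0.12, adjusted p = 1.81e-09). Both separated fully, and for Cgas Nutlin lay below DMSO (-0.69 ± 0.12, adjusted p = 2.29e-04). Sting1, the adaptor of cGAS, had a change of 0.23 (adjusted p = 0.304).

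The core of the interferon-stimulated response element, GAAA and again GAAA with 2 bases of any kind between them, on either strand, occurred in 19 of 41 listed genes with a promoter in the RefSeq table (46.3%) and in 3.99% of all 27025 genes. It shared a base with the NF-kB word in 1 of 32851 promoters. The promoters of Oas3, at chr5:120777610-120777909 on the minus strand, and Ifit1, an RNA-binding effector, at chr19:34640639-34640938 on the plus strand, are shown because both genes rose and hold the core, in capitals. Each is written along its own gene, so the core of Ifit1 reads in reverse complement, at a pair of places.
Oas3: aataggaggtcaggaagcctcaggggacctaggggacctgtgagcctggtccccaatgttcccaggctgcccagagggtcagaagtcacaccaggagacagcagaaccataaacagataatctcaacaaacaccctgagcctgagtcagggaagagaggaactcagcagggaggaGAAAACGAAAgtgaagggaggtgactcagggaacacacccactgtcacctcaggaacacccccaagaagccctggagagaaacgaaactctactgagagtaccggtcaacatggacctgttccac
Ifit1: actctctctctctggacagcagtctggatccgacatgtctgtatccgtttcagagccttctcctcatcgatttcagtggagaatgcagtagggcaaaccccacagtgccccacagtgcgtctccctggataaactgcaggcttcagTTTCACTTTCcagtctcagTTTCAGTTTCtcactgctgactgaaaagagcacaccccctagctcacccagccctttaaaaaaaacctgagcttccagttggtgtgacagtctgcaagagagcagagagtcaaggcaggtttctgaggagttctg
Ifit1 was at 11.2, 9.15 and 3.88 CPM with etoposide and 0.349, 0.6497 and 0.662 CPM with Nutlin (3.84 ± 0.38, adjusted p = 8.77e-09), with no overlap.

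NF-kB genes and secreted factors were mostly higher with etoposide. Of 22 NF-kB subunits and targets, 15 were higher and 4 lower, with a median of 0.86. Relb, a subunit, was at 23.2, 26.5 and 23.7 CPM with etoposide and 5.48, 4.68 and 5.47 CPM with Nutlin (2.23 ± 0.12, adjusted p = 1.49e-13). Nfkbia, the inhibitor that NF-kB induces, was at 129.7, 138 and 127 CPM against 65.6, 56.3 and 59.01 CPM (1.12 ± 0.089, adjusted p = 1.57e-10). Tnfaip2 rose 37.04-fold to 17.1 ± 1.48 CPM, and Vcam1, an adhesion molecule, was at 4.69, 7.69 and 7.26 CPM with 0 counts with Nutlin, at least 144-fold higher against the same floor. Nfkbiz, an atypical inhibitor, went the other way (-1.08 ± 0.21, adjusted p = 1.39e-04). The NF-kB word, GGGA and TTCC with 2 bases of any kind between them, on either strand, occurred in 3 of 17 list genes with a promoter (17.6%) and in 1.63% of all genes. The Nfkbia promoter, at chr12:55492598-55492897 on the minus strand, is shown because the gene rose, with its match in capitals, in reverse complement.
Nfkbia: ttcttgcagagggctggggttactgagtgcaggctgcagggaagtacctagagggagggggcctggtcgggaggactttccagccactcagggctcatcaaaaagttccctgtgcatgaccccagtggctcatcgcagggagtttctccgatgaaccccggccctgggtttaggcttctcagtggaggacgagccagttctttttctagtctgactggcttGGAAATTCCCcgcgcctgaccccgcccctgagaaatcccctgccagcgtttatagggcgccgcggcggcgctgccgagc

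Of 34 cytokines and chemokines, 22 passed the filter, which a gene could do through 1 high group alone. Of these, 15 were higher with etoposide and 1 lower. Csf1, the macrophage growth factor, was at 119, 128 and 129.6 CPM with etoposide, 38.6, 34.3 and 32.97 CPM with Nutlin and 28.3, 26.4 and 26.7 CPM in DMSO (1.83 ± 0.068, adjusted p = 4.70e-16). Both drugs raised Csf1 over DMSO, etoposide by 2.21 and Nutlin by 0.38. Cx3cl1, fractalkine, was at 23.5, 27.98 and 27.6 CPM against 4.63, 5.28 and 6.09 CPM (2.30 ± 0.15, adjusted p = 3.65e-12). Ccl2, Ccl5 and Cxcl10 stayed under 3 CPM in every library, and Il6, Il1a and Tnf did not pass the filter. Summed over the list, the etoposide libraries held 669, 716 and 631 CPM, the Nutlin libraries 439, 551 and 462 CPM and DMSO 804, 821 and 734 CPM. Against DMSO, 17 of the 22 were higher with etoposide and 2 lower, with Mif lower under etoposide than in DMSO (-1.002 ± 0.11, adjusted p = 3.82e-08).

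The interleukin-33 gene stood on opposite sides of DMSO. Il33, an alarmin kept in the nucleus, was at 21.05, 23.05 and 23.9 CPM with etoposide, 2.99, 4.76 and 2.87 CPM with Nutlin and 12.9, 16.5 and 15.9 CPM in DMSO (2.67 ± 0.17, adjusted p = 5.42e-12). DMSO lay between the drugs, where Nutlin fell by 2.09 (adjusted p = 1.60e-08) and etoposide rose by 0.58 (adjusted p = 0.00194). Il1rap, the second chain of its receptor, rose by 1.78 with etoposide against Nutlin. Of 15 listed members of the interleukin-1 family and its receptors, 11 had a row and 10 were tested. All 10 were higher with etoposide than with Nutlin. The filter could keep a gene through 1 high group alone, and Il1b and Il1rn of this family had 0 counts in DMSO. Against DMSO, 2 of the 10 were lower and 0 higher with Nutlin. The Il1rl1 level with etoposide, 45.6 ± 1.56 CPM (SD, n = 3), was the highest among them.

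Of 30 proteases, matrix proteins and growth factors tested, 19 were higher and 5 lower. Inhba, a subunit of activin A, was at 3.62, 5.67 and 6.01 CPM with etoposide, 0.399, 0.2599 and 0.353 CPM with Nutlin and 0.698, 1.16 and 0.957 CPM in DMSO (3.91 ± 0.31, adjusted p = 1.70e-10). The 3 groups did not overlap for Inhba, and DMSO lay between the drugs. C3, the central complement protein, was at 122, 161 and 156 CPM with etoposide and 4.33, 3.12 and 3.75 CPM with Nutlin (5.30 ± 0.17, adjusted p = 3.88e-17). C1s1, a protease of the complement C1 complex, rose 16.6-fold, and 7 of 9 complement genes were higher and 1, Serping1, lower (-1.18 ± 0.19, adjusted p = 8.04e-06). C1s2 had 51 counts in all with etoposide and 0 with Nutlin and in DMSO, so a high group alone could carry it past the filter. Hbegf, a ligand of the EGF receptor, was lower with etoposide (-0.94 ± 0.10, adjusted p = 4.91e-08), as was Vegfa, the endothelial growth factor (-0.53 ± 0.096, adjusted p = 5.28e-05).

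**Figure D3:**
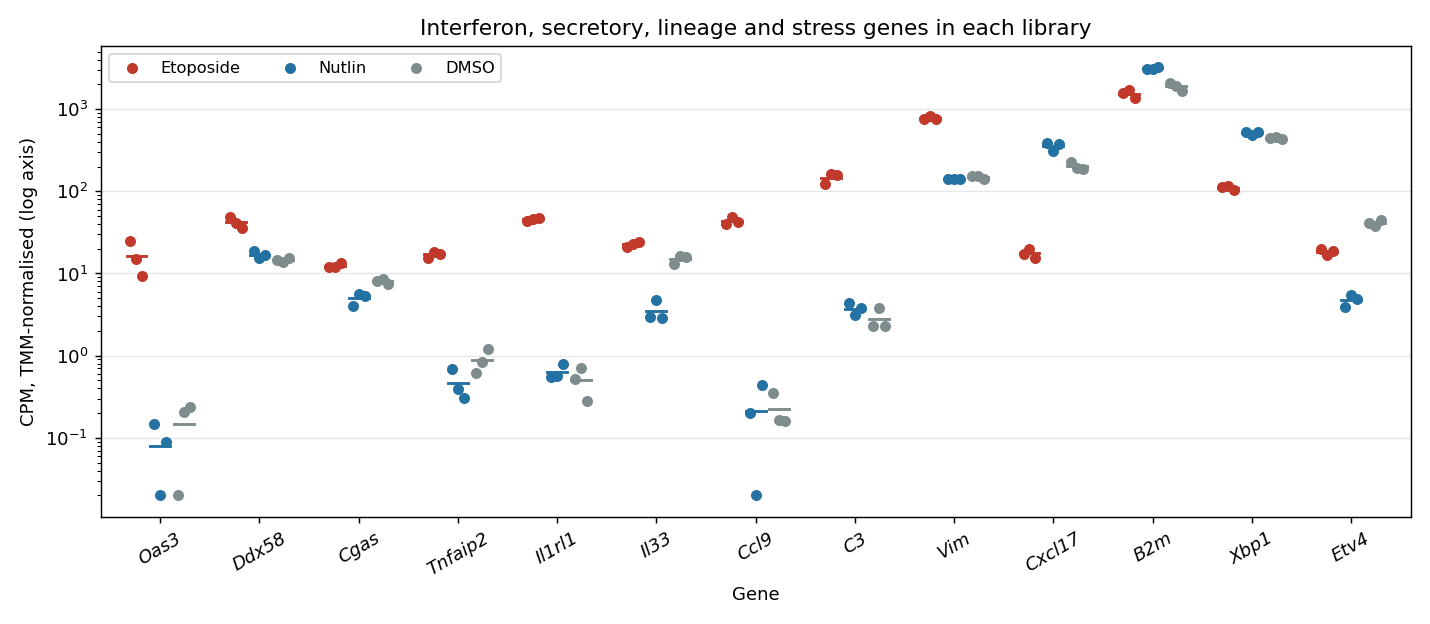
CPM on a log axis for 13 genes in each library of etoposide (red), Nutlin (blue) and DMSO (grey), with bars at the means. Values of 0 are drawn below all others, and etoposide libraries lie highest from Oas3 to Vim, below Nutlin for Cxcl17, B2m and Xbp1, and between DMSO and Nutlin for Etv4.

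Antigen presentation did not move as a block. Of 20 MHC class I and peptide-loading genes, etoposide was above Nutlin for 8 (40%) and below it for 7 (35%). Over all genes these shares were 28.9% and 27.7%. With Nutlin, 9 (45%) were higher than DMSO, beside 8.02% of all genes, and 0 lower. With etoposide, 11 (55%) were higher than DMSO, beside 27.7% of all genes, and 4 (20%) lower, beside 26.9%. B2m, the class I light chain, was at 1555, 1719.9 and 1359.9 CPM with etoposide, 3069, 3075 and 3224 CPM with Nutlin and 2084, 1936 and 1662 CPM in DMSO. Nutlin was the highest group and lay above DMSO (0.72 ± 0.10, adjusted p = 1.08e-05), and etoposide was lower than Nutlin (-1.02 ± 0.10, adjusted p = 7.27e-09). The heavy chain H2-K1, whose reads can be shared with related class I genes, was at 218, 221 and 173 CPM with etoposide and 119, 123 and 119 CPM with Nutlin (0.76 ± 0.088, adjusted p = 9.84e-08). The immunoproteasome subunits Psmb8 and Psmb9 rose by 2.85 and 2.85 on the log2 scale. Among 13 ligands of immune receptors, 10 were higher and 0 lower. Ulbp1, a ligand of the natural killer receptor NKG2D, was at 18.6, 21.1 and 21.9 CPM against 1.99, 3.08 and 1.37 CPM (3.25 ± 0.20, adjusted p = 2.07e-12), and Lgals9, galectin-9, at 170.5, 170.1 and 142 CPM against 81.5, 92.1 and 88.1 CPM (0.88 ± 0.077, adjusted p = 7.43e-10). Cd274, which encodes PD-L1, was at 3.85, 3.29 and 3.095 CPM with etoposide and 1.395, 2.21 and 1.46 CPM with Nutlin (1.01 ± 0.24, adjusted p = 0.00107). Each of these was separate between the drugs.

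More tight-junction and epithelial surface genes were lower than higher with etoposide, and most mesenchymal and collagen genes were higher. Of 19 tight-junction and epithelial surface genes, 4 were higher and 11 lower, with 7 higher under total counts. Cldn4, a claudin of tight junctions, was at 2.55, 3.02 and 2.45 CPM with etoposide and 12.7, 23.7 and 19.1 CPM with Nutlin (-2.79 ± 0.19, adjusted p = 1.47e-11). Grhl2, a regulator of the epithelial state, fell by 1.27 and Esrp2, an epithelial splicing factor, fell by 1.71 on the log2 scale against Nutlin. Ehf, an epithelial ETS factor, went against its list (3.06 ± 0.21, adjusted p = 1.47e-11). Vim, the mesenchymal intermediate filament, was at 748, 836 and 757 CPM with etoposide, 143, 139 and 141 CPM with Nutlin and 152, 155 and 139 CPM in DMSO (2.47 ± 0.067, adjusted p = 5.01e-18). Only etoposide libraries stood apart from DMSO for Vim, with adjusted p = 0.4502 for Nutlin. Of 14 mesenchymal genes, 10 were higher and 0 lower, and of 17 collagens 14 were higher and 1, Col6a3, lower. Col4a2, of basement membranes, was at 67.3, 71.3 and 75.9 CPM against 10.2, 9.96 and 8.43 CPM (2.91 ± 0.085, adjusted p = 1.10e-17), and Fn1, fibronectin, rose 2.595-fold to 7662 ± 949.8 CPM.

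Some markers of other cell types were higher with etoposide. Summed over the tested genes, fibroblast markers (4 of 9 tested) were between 17.81 and 24.85 CPM with etoposide, between 10.61 and 16.46 CPM with Nutlin and between 13.52 and 22.01 CPM in DMSO. Pdgfra, a receptor of fibroblasts, gave 1661 of their etoposide counts, and its etoposide libraries overlapped those of Nutlin and of DMSO. Endothelial markers (3 of 8) were between 6.75 and 8.039 CPM with etoposide, 0.08828 to 0.5198 CPM with Nutlin and 0.1994 to 0.5388 CPM in DMSO, and leukocyte and macrophage markers (3 of 13) between 14.95 and 15.62 CPM, 5.782 to 6.368 CPM and 6.881 to 8.508 CPM in the same order. Of the leukocyte and macrophage markers, Cd14 had 914 counts in all with etoposide and 275 with Nutlin, Cd68 237 and 124, and Lyz2 71 and 4, while Ptprc had 3 and 0. Cd74, the chaperone of MHC class II, was at 10.5, 10.7 and 10.1 CPM with etoposide and 0.399, 0.2599 and 0.0441 CPM with Nutlin (5.49 ± 0.25, adjusted p = 1.35e-14). In all, Csf1r had 38 counts with etoposide and 4 with Nutlin. Of the fibroblast markers, Col1a1 had 61 and 1, Dcn 39 and 0, and Pdgfrb 27 and 0 in the same order. Of the endothelial markers, Vwf had 514 and 15, Pecam1 55 and 5, Tek 38 and 1, and Kdr 19 and 0. Lum, Fap, Emcn, Cldn5 and Ms4a1, further markers of fibroblasts, endothelium and B cells, had 0 counts in all 9 libraries. The part of other cells in these results was not tested.

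Most keratins were lower than DMSO with Nutlin, and with etoposide the share higher than DMSO was near that of all genes. Of 15 tested, 6 (40%) were higher and 7 (46.7%) lower with etoposide than with Nutlin, beside 28.9% and 27.7% of all genes. Against DMSO, 5 (33.3%) were higher and 7 (46.7%) lower with etoposide, beside 27.7% and 26.9% of all genes. With Nutlin 0 were higher than DMSO and 10 (66.7%) lower, beside 8.02% and 11.4% of all genes. Krt14, Krt17 and Krt20 had 0 counts with Nutlin, and Krt20 also in DMSO. A high group alone could carry such genes past the filter. Krt19, a simple epithelial keratin, was at 3.81, 4.13 and 3.84 CPM with etoposide, 14.996, 48.6 and 24.2 CPM with Nutlin and 69.4, 79.6 and 78.9 CPM in DMSO (-2.90 ± 0.28, adjusted p = 3.56e-09). Krt8 was at 6.902, 7.47 and 5.76 CPM, 10.8, 14.3 and 10.9 CPM and 36.04, 34.03 and 37.1 CPM in the same order. DMSO was the highest group for both, and the drugs did not overlap. Krt6a, a keratin of stressed epithelium, was instead higher with etoposide (1.63 ± 0.11, adjusted p = 7.93e-12). Of 10 prostate lineage genes tested, 5 were lower and 2 higher with etoposide than with Nutlin. Steap1, a membrane protein of prostate epithelium, rose (1.32 ± 0.13, adjusted p = 6.43e-09). Foxa1 was at 171, 177 and 191 CPM against 381, 386 and 396 CPM (-1.11 ± 0.074, adjusted p = 8.87e-12), Psca, prostate stem cell antigen, fell by 1.68 and Steap4, a metalloreductase, fell by 2.24.

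Genes of ERK output were mostly lower than DMSO with either drug, and early-response genes were mostly lower with etoposide than with Nutlin. Of 13 genes of ERK output, 7 were higher with etoposide than with Nutlin and 2 lower, with a median of 0.50. Against DMSO, 8 were lower and 2 higher with etoposide, and 9 lower and 0 higher with Nutlin. Etv4, an ETS factor induced by ERK, was at 19.8, 16.8 and 18.9 CPM with etoposide, 3.89, 5.41 and 4.899 CPM with Nutlin and 41.1, 38.1 and 44.98 CPM in DMSO. Etv5, its relative, was at 12.4, 12.8 and 11.9 CPM, 3.24, 2.86 and 2.87 CPM and 18.6, 25.9 and 25.4 CPM in the same order. DMSO was highest and Nutlin lowest for both, and against DMSO Nutlin gave -3.12 for Etv4 and -2.96 for Etv5 on the log2 scale. Dusp6, the phosphatase that limits ERK, was lower with Nutlin (-1.09 ± 0.10, adjusted p = 8.00e-08), and Ccnd1, cyclin D1, was at 316, 358 and 344 CPM against 151, 172 and 154 CPM (1.09 ± 0.070, adjusted p = 3.65e-12).

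Of 22 early-response genes, 16 were lower with etoposide than with Nutlin and 1, Fosl1, higher (1.26 ± 0.12, adjusted p = 3.26e-09), with a median of -1.31. Egr1 was at 116, 95.2 and 75.1 CPM with etoposide and 523, 484 and 549 CPM with Nutlin (-2.44 ± 0.18, adjusted p = 4.13e-11), Nr4a1, an orphan nuclear receptor, at 20.4, 15.8 and 15.3 CPM against 301, 194 and 255 CPM (-3.87 ± 0.23, adjusted p = 1.21e-12). Fosb, a subunit of AP-1, fell by 2.98 on the log2 scale. No library of 1 drug reached those of the other for these genes. With Nutlin 5 of the 22 (22.7%) were higher than DMSO and 2 (9.09%) lower, beside 8.02% and 11.4% of all genes. With etoposide 2 (9.09%) were higher than DMSO and 14 (63.6%) lower, beside 27.7% and 26.9% of all genes. Targets of YAP were divided, 7 (50%) higher and 4 (28.6%) lower of 14, beside 28.9% and 27.7% of all genes. Ccn2, connective tissue growth factor, was at 349.8, 389 and 413 CPM with etoposide, 66.4, 92.004 and 90.97 CPM with Nutlin and 180.2, 314 and 278 CPM in DMSO (2.21 ± 0.15, adjusted p = 1.57e-11). Axl, a receptor kinase, rose 2.68-fold. Myc, the oncogene of the line, was at 126, 119 and 115 CPM with etoposide and 130.4, 107 and 125 CPM with Nutlin with overlapping libraries (-0.0088 ± 0.098, adjusted p = 0.948). Of its network, Mxd4, an antagonist of MYC, was lower with etoposide (-0.76 ± 0.054, adjusted p = 2.16e-11).

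**Figure D4:**
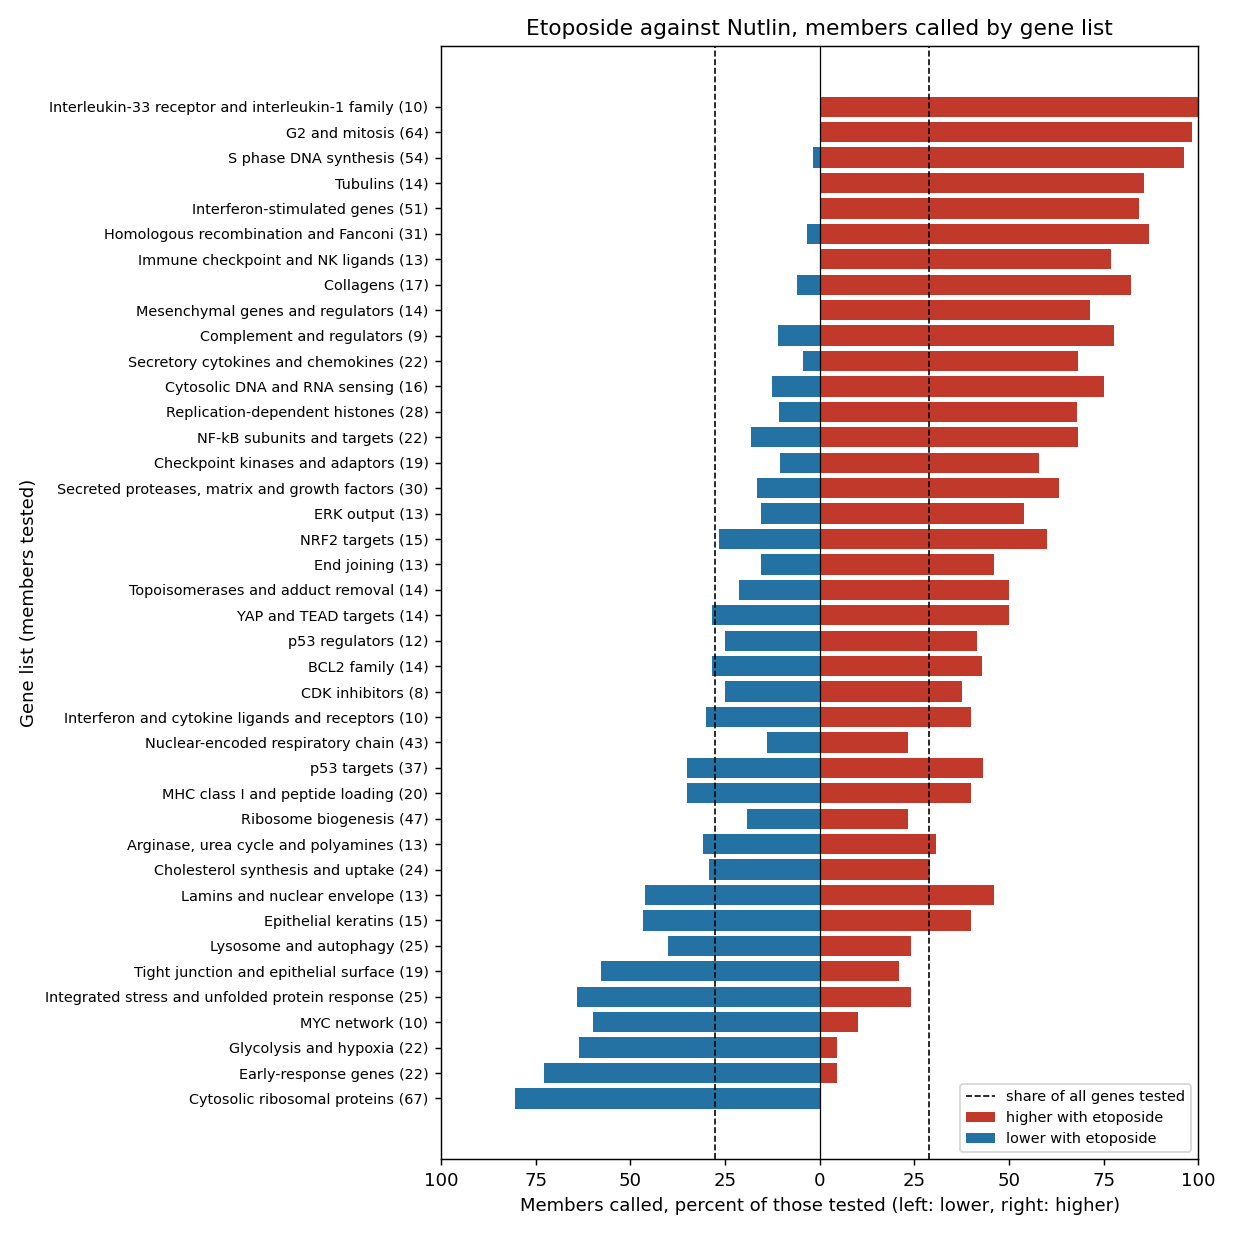
Share of each gene list called higher (right, red) or lower (left, blue) with etoposide than with Nutlin, in percent of the members tested, with the number tested in brackets. Dashed lines mark the shares over all genes tested, 28.9% higher and 27.7% lower. The interleukin-1 family, mitosis and DNA synthesis lists lie at the right end and ribosomal protein genes at the left end.

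Most ribosomal protein genes, and more stress response genes than not, were lower with etoposide. Of 67 cytosolic ribosomal protein genes, whose reads processed pseudogenes can share, 54 were lower and 0 higher, with a median of -0.57, and under total counts 42 were lower and 1 higher. Rpl3, of the large subunit, was at 1017, 1043 and 901 CPM with etoposide and 1949, 2323 and 2205 CPM with Nutlin (-1.13 ± 0.098, adjusted p = 7.65e-10), and Nutlin against DMSO gave 0.036 ± 0.097, adjusted p = 0.842. Of 25 genes of the integrated stress and unfolded protein responses, 16 were lower with etoposide and 6 higher, while with Nutlin 17 were higher than DMSO and 2 lower. Xbp1, a transcription factor of the unfolded protein response, was at 112, 115 and 104 CPM against 528, 487 and 522 CPM (-2.22 ± 0.066, adjusted p = 1.10e-17). Dnajb9, a chaperone of the endoplasmic reticulum that Xbp1 induces, was at 30.9, 37.2 and 32.1 CPM against 117.03, 107 and 116 CPM (-1.76 ± 0.081, adjusted p = 1.44e-14). Etoposide was the low group for both, and Nutlin lay above DMSO by 0.20 and 0.43.

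Chac1, Trib3 and Ddit3, of the same stress responses, were higher than DMSO with either drug. Chac1, which degrades glutathione, was at 60.1, 62.9 and 54.2 CPM with etoposide, 52.1, 44.2 and 52.6 CPM with Nutlin and 13.4, 13.7 and 14.2 CPM in DMSO. Trib3, a pseudokinase induced by ATF4, was at 43.3, 44.98 and 37.8 CPM, 16.99, 19.4 and 16.2 CPM and 5.497, 6.51 and 5.62 CPM in the same order. Against DMSO the rises were 2.10 and 1.85 for Chac1 and 2.84 and 1.58 for Trib3, with etoposide first. Ddit3, which encodes the stress factor CHOP, rose by 1.89 and 1.37.

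Most glycolysis and hypoxia genes were lower with either drug than in DMSO. Of 22, 21 were lower with etoposide and 20 with Nutlin than in DMSO, and between the drugs 14 were lower with etoposide, 1 higher and 7 neither. Hk2, the inducible hexokinase, was at 61.5, 65.6 and 61.7 CPM with etoposide, 279, 279.8 and 284 CPM with Nutlin and 259, 259 and 291 CPM in DMSO (-2.16 ± 0.073, adjusted p = 1.01e-16). Bnip3, a mitophagy receptor induced by hypoxia, was at 23.8, 29.1 and 30.03 CPM, 51.1, 106 and 71.7 CPM and 229, 319 and 256 CPM in the same order. Hk2 was thus low with etoposide alone, and Bnip3 with both. Slc2a1, the glucose transporter GLUT1, fell by 2.13 with etoposide and fell by 0.96 with Nutlin against DMSO on the log2 scale.

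Glb1 and Lmnb1, both used to mark senescent cells, differed in direction between the drugs. Glb1, which encodes the lysosomal beta-galactosidase stained in senescent cells, was at 82.9, 88.7 and 80.8 CPM with etoposide, 216, 212 and 219 CPM with Nutlin and 176, 186 and 169 CPM in DMSO (-1.36 ± 0.082, adjusted p = 1.33e-12). It was lower than DMSO with etoposide (-1.07 ± 0.081, adjusted p = 1.21e-10) and higher with Nutlin (0.29 ± 0.080, adjusted p = 0.0128). Lmnb1, which encodes lamin B1, a nuclear lamina protein that senescent cells tend to lose, was at 81.4, 88.6 and 90.9 CPM, 24.9, 36.1 and 23.04 CPM and 62.8, 70.4 and 62.2 CPM in the same order. It was lower than DMSO with Nutlin (-1.22 ± 0.12, adjusted p = 6.94e-08) and higher with etoposide (0.42 ± 0.11, adjusted p = 0.002502). Of 25 lysosome and autophagy genes, 10 (40%) were lower and 6 (24%) higher with etoposide than with Nutlin, beside 27.7% and 28.9% of all genes. Under total counts the list gave 7 lower and 12 higher, and without Etoposide 2 the higher number was 3. Against DMSO, 12 (48%) were higher and 0 lower with Nutlin, and 12 (48%) higher and 5 (20%) lower with etoposide. Over all genes these shares were 8.02% higher and 11.4% lower with Nutlin, and 27.7% and 26.9% with etoposide. Grn, progranulin, was at 2136, 2258 and 1849 CPM with etoposide and 4074, 4174 and 4132 CPM with Nutlin (-0.99 ± 0.074, adjusted p = 6.73e-11).

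**Figure D5:**
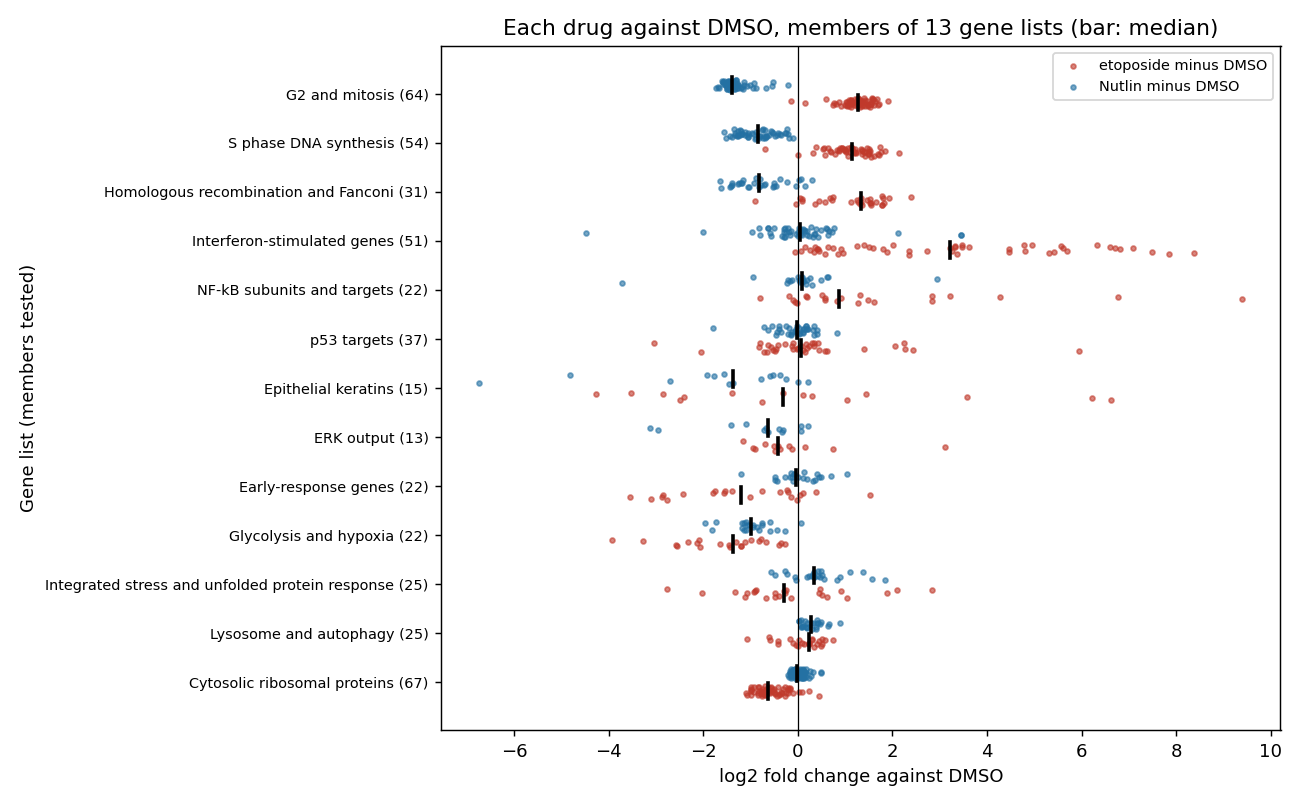
Log2 fold change against DMSO of each tested member of 13 gene lists, for etoposide (red) and Nutlin (blue), with black bars at the medians and the number of members in brackets. The DMSO libraries are shared. The medians of mitosis, DNA synthesis and recombination genes lie right of 0 with etoposide (1.28, 1.14 and 1.33) and left of 0 with Nutlin, and the medians of glycolysis and hypoxia genes lie left of 0 with both.

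Single genes that passed the test in all comparisons on opposite sides of DMSO included Chtf18, a loader of the replication clamp, Tigit, an inhibitory receptor of lymphocytes, and Fam111a, a replication-linked protease. Chtf18 was at 45.3, 34.8 and 41.98 CPM with etoposide, 2.59, 4.81 and 2.21 CPM with Nutlin and 10.8, 10.7 and 10.7 CPM in DMSO (3.66 ± 0.19, adjusted p = 7.91e-14). Tigit was at 45.2, 51.5 and 42.9 CPM, 2.59, 1.86 and 2.43 CPM and 5.54, 8.08 and 8.25 CPM in the same order (4.35 ± 0.16, adjusted p = 5.21e-16). DMSO lay between the drugs in each. In the other direction stood Cdcp3, above, Klf2, a Krüppel-like factor, Ceacam1, a cell adhesion molecule, and Gpx3, a secreted glutathione peroxidase. Ceacam1 was at 54.2, 59.03 and 59.7 CPM with etoposide, 334, 319.6 and 369 CPM with Nutlin and 157, 161 and 189 CPM in DMSO (-2.56 ± 0.078, adjusted p = 1.86e-17). On the log2 scale Klf2 fell by 2.43 and Gpx3 fell by 2.05 with etoposide against Nutlin.

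Genes on the same side of DMSO with both drugs were Glrb, a glycine receptor subunit, Chac1 and Trib3 among the risers, and Krt78, Plac8, Krt4 and Bnip3 among the fallers. Glrb was at 34.2, 36.4 and 29.3 CPM with etoposide, 3.39, 2.77 and 4.46 CPM with Nutlin and 0.742, 1.04 and 0.678 CPM in DMSO. Krt78 was at 8.54, 8.996 and 7.01 CPM, 8.67, 20.7 and 13.9 CPM and 97.6, 79.2 and 107 CPM in the same order. For Krt78 the drugs overlapped and DMSO stood above them. Nutlin alone raised Ogn, which encodes the small proteoglycan osteoglycin, to 102, 77.8 and 109.6 CPM against 29.8, 24.6 and 24.3 CPM in DMSO (1.88 ± 0.13, adjusted p = 5.53e-10), with 25.7, 31.1 and 28.2 CPM under etoposide. It also raised Treh, trehalase, to 24.8, 22.4 and 25.8 CPM against 6.63, 6.798 and 6.42 CPM (1.88 ± 0.10, adjusted p = 3.10e-11). Arg1, arginase, was low with both drugs, at 5.91, 6.97 and 6.94 CPM with etoposide, 4.58, 10.8 and 6.75 CPM with Nutlin and 39.7, 47.2 and 44.5 CPM in DMSO.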

How the data were processed

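Bulk RNA was sequenced in 24 libraries of Myc-CaP cells, of which the 9 of etoposide, Nutlin and DMSO are reported. The authors deposited raw read counts per gene and a table of TPM, a level per transcript length. Reads were handled with fastp, STAR, featureCounts and DESeq2 and the mm10 build was used, per the submitters' processing notes. Versions, the order of the steps and the strand setting are not given in the sources used here, so reads of overlapping and antisense genes cannot be told apart.

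From the counts, 1 model of all 24 libraries was fitted with edgeR 4.0.16 in R 4.3.3 (TMM scaling, filterByExpr set to 10 counts at least and 15 in total, quasi-likelihood F test, 16 residual degrees of freedom). The filter kept 15527 of 55487 genes, with 99.9% of the counts. A gene could pass through its counts in 1 group alone, so counts of risers in a list can include genes kept for a high group. P-values were two-sided and adjusted by Benjamini-Hochberg over all genes tested, with calls at 0.05. The SE was the absolute log2 fold change over the square root of F. The fit was run on data simulated from the DMSO means in which few genes changed. Most genes tested were called between the drugs, so that run does not show how the scaling behaves in these data. Alternatives were other scalings and filters, DESeq2 1.42.0, limma 3.58.1 on the log2 of TPM plus 1 or plus 0.1, a replicate block, and leaving out libraries.

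The genes named were the largest rises and falls among called genes of at least 10 CPM with groups that did not overlap, up to 3 called members of each list with the largest change and at least 5 CPM in a group, members without a call, genes called on opposite or the same sides of DMSO, and a fixed set of p53, topoisomerase and senescence genes. Other called genes that are named were chosen after their values were seen, and a few genes that the rule gives are not reported here. The comparison and the gene lists were chosen with earlier results of these data known.

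Library numbers were checked as pairs by correlating deviations from the group means over genes. Same-numbered etoposide and DMSO libraries had correlations of 0.17, 0.352 and 0.186, and Etoposide 1 had 0.154 with DMSO 3. Etoposide and Nutlin had 0.345, 0.476 and 0.0741, and Nutlin and DMSO 0.179, 0.396 and 0.0701. The labels do not say whether the numbers are pairs, and the main fit used no pairing. All p-values given without the replicate block are therefore unpaired.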

Additional observations from a re-analysis of the deposited data

How the results depend on the processing

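Directions of the called genes held under most settings, and the balance of higher to lower depended on scaling. With total counts, 6397 genes were higher and 2647 lower with etoposide than with Nutlin, and 6271 and 2489 than with DMSO. With limma on log2(TPM + 1), they were 6970 and 2334 against Nutlin and 6522 and 2313 against DMSO, and with log2(TPM + 0.1) 7304 and 2344 and 6844 and 2303. Of the genes called between etoposide and Nutlin, 201 had the opposite sign under total counts, and 224 and 223 under limma with the larger and the smaller pseudocount. For Nutlin against DMSO, limma called 724 and 735 higher, and a fit of these groups alone called 623 higher and 1076 lower. Calls of at least 2-fold numbered 2387 higher and 890 lower for etoposide against Nutlin, 2258 and 752 for etoposide against DMSO, and 126 and 451 for Nutlin against DMSO. The cause of these differences was not tested.

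Leaving out 1 library at a time gave 4138 to 4374 genes higher and 4000 to 4247 lower for etoposide against Nutlin, and 4023 to 4181 and 3836 to 4028 for etoposide against DMSO. For Nutlin against DMSO it gave 878 to 1426 higher and 1069 to 2033 lower, with 1069 lower without Nutlin 1 and 1154 lower without DMSO 2. With library number as a replicate block, 4852 genes were higher and 4779 lower for etoposide against Nutlin, 4706 and 4637 for etoposide against DMSO, and 1838 and 2307 for Nutlin against DMSO. Etoposide 3 correlated better with Nutlin 1 (0.165) than with the library of its own number.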

Other observations

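Most histone and tubulin genes tested, and some cell death genes, also separated the drugs. Of 44 replication-dependent histone genes, whose copies share reads, 28 were tested, and 19 were higher and 3 lower with etoposide than with Nutlin. Their summed level went the other way, at 156, 163 and 142 CPM with etoposide and 205, 202 and 191 CPM with Nutlin. Among 14 BCL2 family genes tested, 6 (42.9%) were higher with etoposide than with Nutlin and 4 (28.6%) lower, with a median of 0.086. Over all genes the shares were 28.9% and 27.7%. Bmf, a death activator that antagonises BCL2, was at 13.1, 14.7 and 15.2 CPM with etoposide and 39.5, 45.4 and 39.1 CPM with Nutlin (-1.53 ± 0.086, adjusted p = 3.92e-13). Bid, which links death receptors to mitochondria, was at 49.7, 48.8 and 46.7 CPM against 26.2, 25.5 and 23.4 CPM (0.95 ± 0.068, adjusted p = 3.06e-11). Hmox1, the heme oxygenase that NRF2 induces, rose 2.68-fold (1.42 ± 0.074, adjusted p = 1.08e-13), and G6pdx, of the pentose phosphate pathway, at 57.96, 59.5 and 60.1 CPM against 142, 167 and 149 CPM (-1.36 ± 0.064, adjusted p = 2.10e-14). Of 14 tubulin genes, whose reads related copies can share, 12 were higher with etoposide than with Nutlin and 0 lower, with a median of 0.87 on the log2 scale. The nuclear noncoding RNA Neat1, which builds paraspeckles, was at 882, 222 and 698 CPM with etoposide, 479.6, 67.7 and 299 CPM with Nutlin and 154, 42.7 and 172 CPM in DMSO (1.09 ± 0.64, adjusted p = 0.154). Malat1, a noncoding RNA of nuclear speckles, was at 529.7, 251 and 462 CPM, 1479, 465 and 737 CPM and 484, 320.2 and 503 CPM in the same order (-1.11 ± 0.34, adjusted p = 0.00795), a call lost with limma. Without Etoposide 2 the Malat1 change was -0.85 (edgeR adjusted p = 0.0519) and without Nutlin 1 it was -0.55 (edgeR adjusted p = 0.148).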
